A study of Mus musculus with 64 samples.

Results

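The genes described here are 33 genes of fatty acid oxidation, ketone metabolism and peroxisome proliferator-activated receptor (PPAR) signalling, taken by name from the 19521 genes of the tables, and all 33 were present. They were followed across liver, white adipose tissue (WAT), heart and skeletal muscle of male C57BL/6 mice, in 64 RNA-seq libraries that form 16 groups of 4. Mice labelled KO (Pklr-/-, 8 animals) and wild-type mice (CTRL, C57BL/6J, 8 animals) received either a high-sucrose diet (HSD) or chow for 8 weeks, starting when they were 8 weeks old, and tissues were collected at 16 weeks. In each tissue the groups are labelled KO on HSD, labelled KO on chow, CTRL on HSD and CTRL on chow, with 4 mice each. The labels do not state which part of Pklr was altered or from which line the mutants came. All 4 tissues were taken from the mice.

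Pklr, the liver and red cell pyruvate kinase gene named in the mutant's label, was not lower in the livers labelled KO. Its level was 314 to 459 TPM, a transcript level scaled by length and library total, in labelled KO livers on HSD and 147 to 268 TPM in labelled KO livers on chow, against 154 to 263 TPM in CTRL livers on HSD and 61.6 to 141 TPM in CTRL livers on chow. These values cover the whole gene, so they do not check the altered part, and the genotype is called labelled KO throughout. Estimated counts per library summed to 8078117 to 12188623 in heart, 6714622 to 12061137 in liver, 6669448 to 11685928 in muscle and 5724366 to 11927089 in WAT. The labelled KO livers were the shallower ones, with 6714622 to 7940378 counts, against 8211776 to 12061137 counts in CTRL livers. The defining markers were high in the labelled tissues: 5 cardiomyocyte genes summed to 7058 to 12280 TPM in heart, 5 hepatocyte genes to 36300 to 99290 TPM in liver, 5 fast muscle genes to 12450 to 17180 TPM in muscle and 5 white adipocyte genes to 11270 to 31130 TPM in WAT. In muscle the cardiomyocyte genes summed to 774.6 TPM in labelled KO chow muscle 2 and to 9.77 to 22.6 TPM in the other libraries. Some libraries had been set apart by earlier results of these data: CTRL chow livers 1 and 3, of which the first had the lowest hepatocyte sum (36300 TPM), and CTRL chow WAT 2 and 4, in which log2 expression rose with transcript length by 0.206 and 0.130 per log2 unit relative to the mean of WAT, against -0.0811 to 0.0638 in the other WAT libraries. The same slope was 0.180 in CTRL HSD liver 3 and -0.196 in CTRL chow muscle 1, and no other library of any tissue reached 0.1 in size. Where edgeR called members in a comparison that uses the CTRL chow libraries set apart, the count is given without them too. Spreads, overlaps between libraries, correlations and the CTRL difference of Cyp4a14 are not given without these pairs. Ucp1, which defines brown adipocytes, averaged 0.0278 TPM in WAT.

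Long-chain fatty acids enter mitochondria as carnitine esters, which carnitine palmitoyltransferases make on the outside and split again on the inside, and which a carrier moves across the inner membrane. Inside, acyl-CoA dehydrogenases, a hydratase, a hydroxyacyl dehydrogenase and a thiolase shorten the chain in repeated rounds, and the electrons reach the respiratory chain through the electron transfer flavoprotein. Peroxisomes run a parallel pathway for very long chains and the dicarboxylic acids that Cyp4a enzymes make by omega hydroxylation, and liver turns surplus acetyl-CoA into ketone bodies that heart and muscle burn. PPAR alpha is a fatty acid-activated transcription factor, and many genes of all these routes, the Cyp4a genes among them, are known as its targets in mouse liver.

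Promoter sequence is shown for 5 members whose levels or responses are contrasted in the results. Each run is the 250 bases before the RefSeq start site (GRCm38.p6), written 5′ to 3′ on the gene's own strand. RefSeq promoters matched 25 of the 33 members.
Hadhb (chr5:30155003-30155252, plus strand): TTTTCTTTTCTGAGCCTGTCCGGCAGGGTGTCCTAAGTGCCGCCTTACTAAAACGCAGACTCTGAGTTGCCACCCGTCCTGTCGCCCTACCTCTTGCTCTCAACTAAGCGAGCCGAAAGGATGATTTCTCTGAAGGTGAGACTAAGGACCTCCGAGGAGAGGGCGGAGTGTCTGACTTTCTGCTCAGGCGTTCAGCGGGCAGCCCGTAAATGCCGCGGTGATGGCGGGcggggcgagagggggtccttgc
In Hadhb, the capitals mark the 228 bases that its 300-base window (250 before the start, 50 after) shares with the window of Hadha. These genes encode both subunits of the mitochondrial trifunctional protein and lie head to head, with start sites 273 bases apart.
Echs1 (chr7:140116422-140116671, minus strand): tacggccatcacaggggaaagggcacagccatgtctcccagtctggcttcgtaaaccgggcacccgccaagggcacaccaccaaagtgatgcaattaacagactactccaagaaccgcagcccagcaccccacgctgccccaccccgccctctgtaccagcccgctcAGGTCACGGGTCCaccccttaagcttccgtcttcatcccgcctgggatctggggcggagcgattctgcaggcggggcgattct
Cpt1a (chr19:3323051-3323300, plus strand): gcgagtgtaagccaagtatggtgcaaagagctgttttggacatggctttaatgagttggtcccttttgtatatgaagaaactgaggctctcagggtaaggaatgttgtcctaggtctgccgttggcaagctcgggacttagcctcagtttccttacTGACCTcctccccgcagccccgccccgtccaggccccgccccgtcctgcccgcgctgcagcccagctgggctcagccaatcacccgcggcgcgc
In Echs1, the capitals mark a match with up to 2 mismatches to AGGTCANAGGTCA, the direct repeat spaced by 1 base (DR1) to which PPAR and RXR pairs bind, and it begins 83 bases before the start. In Cpt1a they mark TGACCT, the reverse complement of the nuclear receptor half-site AGGTCA, 94 bases before the start.
Acaa1a (chr9:119341044-119341293, plus strand): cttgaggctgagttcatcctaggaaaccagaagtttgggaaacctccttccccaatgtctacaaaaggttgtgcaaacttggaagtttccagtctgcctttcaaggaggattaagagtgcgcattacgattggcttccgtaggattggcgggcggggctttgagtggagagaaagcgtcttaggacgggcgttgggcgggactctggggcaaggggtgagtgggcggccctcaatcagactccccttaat
Acaa1b (chr9:119157094-119157343, minus strand): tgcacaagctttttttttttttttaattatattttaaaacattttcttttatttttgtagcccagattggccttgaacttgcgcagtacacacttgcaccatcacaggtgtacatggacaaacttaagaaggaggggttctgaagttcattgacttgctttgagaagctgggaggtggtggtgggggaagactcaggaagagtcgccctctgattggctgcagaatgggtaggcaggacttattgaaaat
Acaa1a and Acaa1b, which encode closely related peroxisomal thiolases, start 184.2 kb apart and hold none of the motifs searched in this window. Over both strands of the 300-base windows, AGGTCA was found in 4 of 25 members (16%) and in 16.3% of 32851 promoters, and the DR1 letters with up to 2 mismatches in 3 of 25 (12%) and in 3.86%. The Echs1 match counts in both searches, since its first half-site is exact. The ERR site TCAAGGTCA and the E-box CACGTG were found in 0 members, against 0.423% and 7.15% of all promoters. These matches describe the letters only.

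Levels of the members differed between the 4 tissues, but Cpt1a, Acadm and Hadhb alone had all 4 apart without overlapping libraries. Heart held the highest mean TPM for 11 members, liver for 9, muscle for 6 and WAT for 7. The share of all genes is not given for these counts or for the lack of overlap, so they do not set the members apart from other genes. Summed over all 33 members, the level was 6598 ± 412 TPM in heart, 4364 ± 635 TPM in liver, 5426 ± 470 TPM in muscle and 3906 ± 167 TPM in WAT (SD over the 16 libraries of a tissue, as for every TPM mean in the next paragraphs). TPM is scaled by transcript length, so it allows levels of different genes to be compared. Mitochondrially encoded genes belong to the TPM total too. In heart they took 36.35% to 48.55% of the counts and in muscle 25.2% to 31%, whereas they took 6.23% to 10.6% in liver libraries and 6.43% to 11.1% in WAT libraries. As a percent of the TPM of nuclear genes the members summed to 2.04% ± 0.0706 in heart, 0.583% ± 0.0914 in liver, 1.17% ± 0.0746 in muscle and 0.599% ± 0.0310 in WAT.

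**Figure D1:**
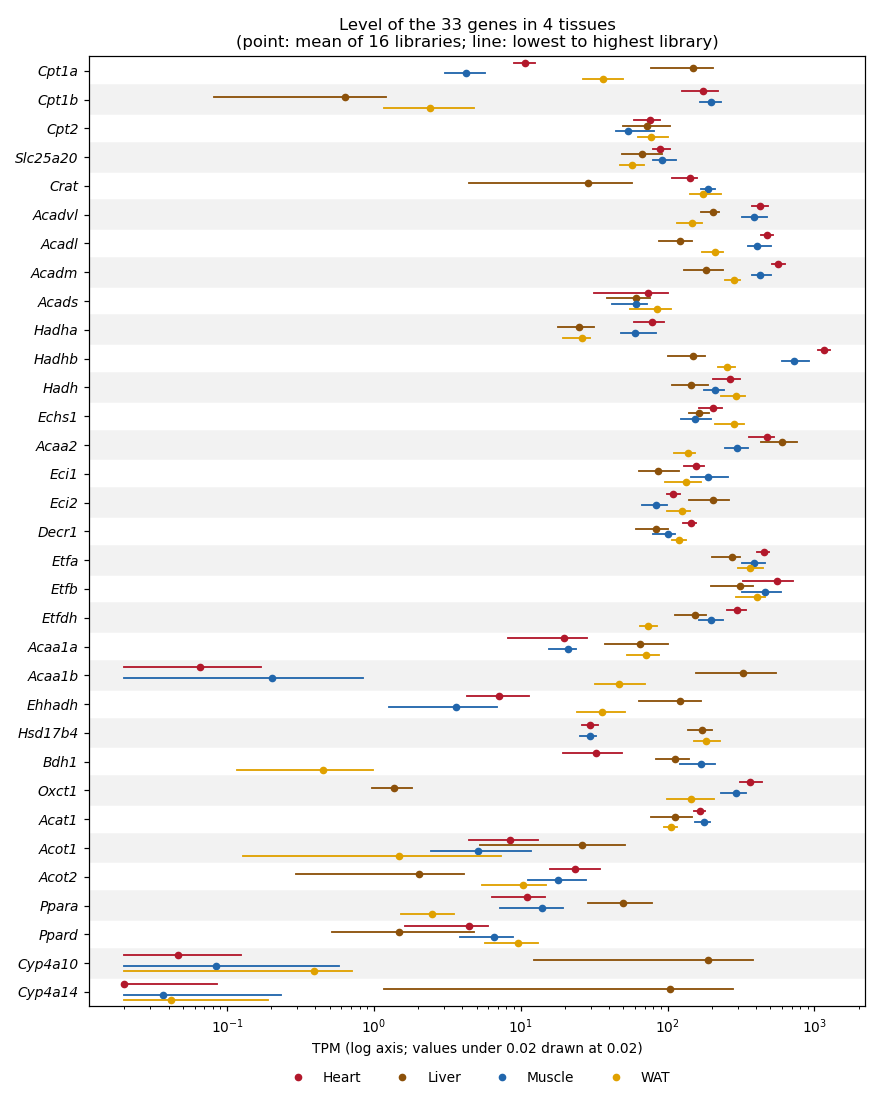
Mean level of each of the 33 members in heart, liver, muscle and WAT, as TPM on a log axis, ordered by role. Points are means of the 16 libraries of a tissue, lines run between the lowest and the highest library, and values under 0.02 TPM are drawn at 0.02. Hadhb in heart, at 1156 TPM, has the highest mean, and Cyp4a10, Cyp4a14 and Acaa1b are near 0 in heart and muscle.

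Among the entry genes, the carnitine palmitoyltransferase isoforms divided the tissues. Cpt1a, the liver isoform, was at 11.3, 12.5, 10.48 and 11.3 TPM in CTRL chow hearts, 159, 203, 127 and 143 TPM in livers, 3.05, 5.01, 3.55 and 3.75 TPM in muscles, and 33.02, 49.4, 45.6 and 39.6 TPM in WAT. No library of a tissue reached into the range of another, over all 16 libraries as well. Cpt1b, the muscle isoform, was at 158, 181, 192 and 210.1 TPM in CTRL chow hearts, 0.640, 0.970, 0.544 and 1.22 TPM in livers, 207, 211, 191 and 189.8 TPM in muscles, and 1.87, 1.91, 2.02 and 2.52 TPM in WAT. Cpt1b made up 94.2% ± 0.856 of the summed Cpt1a and Cpt1b TPM in heart and 97.9% ± 0.315 in muscle, but 0.415% ± 0.206 in liver and 6.32% ± 2.58 in WAT. Of all 31-base stretches of Cpt1b transcripts, 81% are shared with the annotation Gm44502, so its level also depends on how the counting divided such reads.

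The other entry genes were spread more evenly. Cpt2, which frees the acyl-CoA on the matrix side, had 75.7 ± 7.80 TPM in heart, 72.5 ± 15.8 TPM in liver, 53.6 ± 8.86 TPM in muscle and 77.7 ± 10.2 TPM in WAT, and neighbouring tissues in that order overlapped. Slc25a20, the carnitine-acylcarnitine carrier, lay between 56.9 ± 5.68 TPM in WAT and 92.0 ± 9.20 TPM in muscle. Crat, a carnitine acetyltransferase that buffers acetyl-CoA, was at 28.9 ± 14.2 TPM in liver, below every library of the other 3 tissues, where its mean was 141 to 189.8 TPM.

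Most acyl-CoA dehydrogenases and the trifunctional protein genes had their highest mean in heart. The 4 acyl-CoA dehydrogenases, which start a round for very long (Acadvl), long (Acadl), medium (Acadm) and short (Acads) chains, summed to 1544 ± 91.4 TPM in heart, 568 ± 66.4 TPM in liver, 1283 ± 113 TPM in muscle and 726 ± 41.6 TPM in WAT. Acadm alone had 568 ± 33.9 TPM in heart and 182 ± 33.5 TPM in liver, and its tissues, in the order heart, muscle, WAT and liver, did not overlap. Acads was an exception, at 60.99 to 85.01 TPM in every tissue and with overlapping libraries. Hadhb, the thiolase subunit of the trifunctional protein, had 1156 ± 59.5 TPM in heart, 150.1 ± 22.6 TPM in liver, 728 ± 83.5 TPM in muscle and 256 ± 20.1 TPM in WAT, again without overlap. Its partner Hadha had 78.2 ± 9.78, 24.8 ± 3.79, 60.3 ± 8.57 and 26.2 ± 2.69 TPM in heart, liver, muscle and WAT. The ratio of Hadhb to Hadha was therefore 14.98 ± 1.89 in heart, 6.08 ± 0.654 in liver, 12.1 ± 0.772 in muscle and 9.88 ± 1.38 in WAT, and the genes start head to head from the promoter printed above. Only 37.9% of the 31-base stretches of Hadhb are its own, 61.2% being shared with the annotation Gm13910, which limits what the ratio says about transcript numbers.

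Among the other steps, the tissue with the highest mean differed from gene to gene. Acaa2, the mitochondrial thiolase, had its highest mean in liver with 599.7 ± 89.5 TPM, overlapping with heart, and its lowest in WAT with 137 ± 14.8 TPM. Echs1, the short-chain hydratase, had 284 ± 31.6 TPM in WAT and 204 ± 16.8 TPM in heart, and Hadh, the hydroxyacyl-CoA dehydrogenase, 291 ± 26.5 TPM in WAT and 265 ± 27.2 TPM in heart, both with overlapping libraries. Of the enzymes that handle double bonds, the mean of Eci2 was highest in liver (205 ± 37.4 TPM), of Eci1 in muscle (188 ± 29.2 TPM) and of Decr1 in heart (144 ± 8.96 TPM), each overlapping with another tissue. The electron transfer genes Etfa, Etfb and Etfdh summed to 1306 ± 111 TPM in heart, 739.5 ± 71.8 TPM in liver, 1052 ± 106 TPM in muscle and 844.5 ± 49.3 TPM in WAT. Etfb shares 62% of its 31-base stretches with the annotation Gm45233, so its level also depends on how the counting divided such reads.

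The peroxisomal genes were higher in liver and WAT than in heart and muscle, and the omega hydroxylases were high in liver alone. The 4 peroxisomal genes summed to 56.9 ± 5.90 TPM in heart, 682 ± 160 TPM in liver, 54.1 ± 2.58 TPM in muscle and 338 ± 23.4 TPM in WAT. Acaa1b was at 324 ± 138 TPM in liver and 46.7 ± 9.41 TPM in WAT, but at 0.0652 ± 0.0606 TPM in heart and 0.201 ± 0.246 TPM in muscle. Ehhadh, the peroxisomal bifunctional enzyme, had 122 ± 31.2 TPM in liver and 35.6 ± 8.86 TPM in WAT, and Hsd17b4, which also joins hydratase and dehydrogenase activities, had 171 ± 17.1 TPM in liver and 184 ± 22.2 TPM in WAT. Cyp4a10 and Cyp4a14 summed to 293 ± 166 TPM in liver, and their summed mean was 0.0627, 0.120 and 0.430 TPM in heart, muscle and WAT.

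Oxct1, which activates ketone bodies for burning, was at 441, 379, 409 and 383 TPM in CTRL chow hearts, 1.31, 1.37, 1.35 and 1.39 TPM in livers, 334, 329, 292 and 345 TPM in muscles, and 126, 208, 161 and 201.3 TPM in WAT. Bdh1, which interconverts the main ketone bodies, was at 30.4, 25.2, 43.04 and 38.7 TPM in CTRL chow hearts, 87.6, 114, 83.5 and 85.1 TPM in livers, 158, 189.5, 182 and 205 TPM in muscles, and 0.295, 0.276, 0.469 and 0.288 TPM in WAT. Liver thus held Bdh1 with hardly any Oxct1, and WAT held Oxct1 with hardly any Bdh1. The ratio of Oxct1 to Bdh1 was 11.8 ± 2.78 in heart, 0.0126 ± 0.00363 in liver, 1.76 ± 0.204 in muscle and 492 ± 344 in WAT. Acat1, the mitochondrial acetoacetyl-CoA thiolase, varied less, between 106 ± 5.65 TPM in WAT and 178 ± 11.5 TPM in muscle.

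The acyl-CoA thioesterases Acot1 (cytosolic) and Acot2 (mitochondrial) also split by tissue, with Acot2 forming 73.9% ± 5.19 of their summed TPM in heart, 7.47% ± 2.57 in liver, 78.3% ± 5.92 in muscle and 88.9% ± 8.89 in WAT. Acot1 shares 28.9% of its 31-base stretches with Acot2, and Acot2 29.9% with Acot1. The split therefore also depends on how the counting divided such reads. Ppara had 10.9 ± 2.09 TPM in heart, 50.1 ± 13.8 TPM in liver, 13.9 ± 3.56 TPM in muscle and 2.48 ± 0.614 TPM in WAT, and liver lay above and WAT below every library of the rest. Ppard, the delta receptor, was highest in WAT (9.57 ± 1.82 TPM) and lowest in liver (1.48 ± 0.999 TPM), with overlap between neighbours. In bulk tissue, fewer cells of a type and less RNA per cell cannot be told apart.

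Tissue differences were tested in the 16 CTRL chow libraries, with edgeR's quasi-likelihood test on rounded estimated counts and Benjamini-Hochberg adjustment over 13707 genes. A member is called past the test where its adjusted p is under 0.05, and log2 differences are given with their standard error. Between heart and liver, 19 of 33 members were higher and 11 lower in heart, where 36.9% of all genes tested were called higher and 34.3% lower. The members' median log2 difference was 0.67, against 0.04 over all genes. Oxct1 (8.19 ± 0.20), Cpt1b (7.81 ± 0.18), Acot2 (3.96 ± 0.32) and Crat (3.18 ± 0.37) were the members highest in heart, with adjusted p of 3.15e-16, 1.71e-16, 3.91e-09 and 7.60e-07 by edgeR. Ehhadh was lower in heart by -3.83 ± 0.31 (adjusted p = 7.29e-09). Acaa1b, Cyp4a10 and Cyp4a14 were called lower too, but their 4 CTRL chow hearts held 2.42, 4.53 and 2 estimated counts in all, against 15290, 9927 and 3108 counts in the 4 livers, so that a fitted fold rests on the prior count and is left out. Of 29 other genes of the pathway tested, 7 were called higher and 19 lower in heart. Without CTRL chow livers 1 and 3 and CTRL chow WAT 2 and 4, 18 members were called higher and 12 lower in heart.

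Between heart and muscle, the members that were called leaned to heart: 14 of 33 were higher and 1 was lower, where 24.8% and 24.4% of all genes were called. The median was 0.30 over members and 0.03 over all genes. Cpt1a (1.69 ± 0.15, adjusted p = 6.12e-08 by edgeR), Ehhadh (0.82 ± 0.31, adjusted p = 0.0353) and Acaa2 (0.79 ± 0.13, adjusted p = 6.05e-05) were among those higher, while Acot1 at 1.10 ± 0.62 did not pass (adjusted p = 0.157). Bdh1 was the member called lower in heart, by -2.53 ± 0.17 (adjusted p = 6.93e-10). Ppard at -0.45 ± 0.19 (adjusted p = 0.0550) did not pass, and neither did Acaa1b or Cyp4a10, whose CTRL chow counts summed to 2.42 and 4.53 in heart and 20.1 and 8 in muscle. On the log2(TPM + 1) scale, limma called 10 members higher and 1 lower in heart, and Acat1, Cyp4a14 and Slc25a20 changed sign. The share of all genes that limma called is not given here. The other pathway genes gave 7 higher and 5 lower of 29. Without the 4 libraries named above, which are no heart or muscle but enter the shared estimate of spread, 15 members were called higher and 3 lower, and Ppard (adjusted p = 0.0356) and Acaa1b (adjusted p = 0.0221) passed by edgeR. Acaa1b rests there on the few counts given above. Shares of all genes are not given for the tissue fits without these libraries.

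Between liver and WAT the counts depended on the scale. By edgeR, 28 of 33 members were higher and 4 lower in liver, where 38.3% and 35.1% of all genes were called, and the members' median was 1.53 against 0.05 over all genes. On the log2(TPM + 1) scale the median of all genes was -1.09, the members' median was -0.06, and limma called 12 members higher and 13 lower in liver. Limma's share of all genes is not given, so its counts do not set the members apart from other genes. On the log2(TPM + 1) scale 14 members had the opposite sign from edgeR's: Acadl, Acadm, Acads, Acat1, Cpt1b, Decr1, Echs1, Eci1, Etfa, Etfb, Hadh, Hadha, Hadhb and Hsd17b4. Bdh1 (9.56 ± 0.27, adjusted p = 1.19e-15 by edgeR) and Acot1 (6.03 ± 0.78, adjusted p = 3.14e-06) were far higher in liver on either scale, as was Cyp4a10 (10.13 ± 0.93, adjusted p = 1.14e-07), while Cyp4a14 had 1 estimated count over the 4 WAT libraries and gets no fold. Oxct1 (-5.45 ± 0.18, adjusted p = 1.30e-14), Crat (-1.60 ± 0.35, adjusted p = 0.000619), Ppard (-1.38 ± 0.21, adjusted p = 1.09e-05) and Acot2 (-1.07 ± 0.33, adjusted p = 0.00726) were lower in liver. Without CTRL chow livers 1 and 3 and CTRL chow WAT 2 and 4, 28 members were higher and 3 lower, and Acot2 was at -0.78 (adjusted p = 0.0885). Of the other pathway genes, 20 of 29 were higher and 4 lower in liver by edgeR. No member changed sign between the scales for heart against liver.

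Within tissues, genotype and diet were compared over the 4 groups of a tissue in a single fit. The filter on low counts left all 33 members in liver, 29 in WAT (without Bdh1, Acot1, Cyp4a10 and Cyp4a14), and 30 each in heart and muscle (without Acaa1b, Cyp4a10 and Cyp4a14). Comparisons that share a group share its 4 libraries, so their members' values are given side by side. Nothing in the labels says more of the 4 samples of a group than that they are 4 mice.

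In liver, no member passed the test between the genotypes, and Acaa1a was the member that passed for diet. Acaa1a was at 74.8, 65.3, 52.5 and 41.9 TPM in labelled KO livers on HSD and at 45.3, 46.5, 86.65 and 90.55 TPM in labelled KO livers on chow. It was at 59.3, 49.1, 37.7 and 48.7 TPM in CTRL livers on HSD, against 100.3, 87.8, 75.55 and 74.4 TPM in CTRL livers on chow. Among CTRL mice, every HSD library was below every chow library, whereas the labelled KO groups overlapped. In CTRL mice Acaa1a fell on HSD by -0.99 ± 0.22 (edgeR, adjusted p = 0.0188), and it was the 1 of 33 members called, where 2.19% of all genes were called lower. The mean over genotypes was -0.68 ± 0.15 (adjusted p = 0.0169), again the 1 member called, where 2.92% of all genes were called lower. Both counts of members were near the share of all genes.

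The call of Acaa1a was sensitive to libraries and to the neighbouring copy. Without CTRL HSD liver replicate 2 or 4 the adjusted p in CTRL mice was 0.0514 and 0.0527, and without CTRL chow livers 1 and 3, it was 0.0937 (and 0.0509 for the mean of genotypes). Without CTRL HSD liver 3, whose Acaa1a level was the lowest, it was 0.0477 at -0.85. Of the 31-base stretches of Acaa1a, 35.3% are shared with Acaa1b, and with both genes summed the difference was -0.57 ± 0.33 (adjusted p = 0.333) in CTRL mice and -0.58 ± 0.23 (adjusted p = 0.156) for the mean. By limma on log2(TPM + 1) it was -0.79 in CTRL mice (adjusted p = 0.0605). The clock score subtracts the mean log2 expression of Clock, Npas2 and Arntl, the activating arm of the daily clock, from that of Hlf, Tef, Ciart, Dbp, Per3 and Per2, which that arm drives. It was -2.70 to -0.00822 in CTRL HSD livers and 0.469 to 2.85 in CTRL chow livers, and with the score as a covariate Acaa1a was at -1.22 (adjusted p = 0.242). Since these ranges did not overlap, score and diet cannot be told apart in CTRL livers, and the lost call decides nothing. The hepatocyte marker sum was 84160 to 95660 TPM in CTRL HSD livers and 36300 to 81650 TPM in CTRL chow livers, and its part in the result was not tested.

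**Figure D2:**
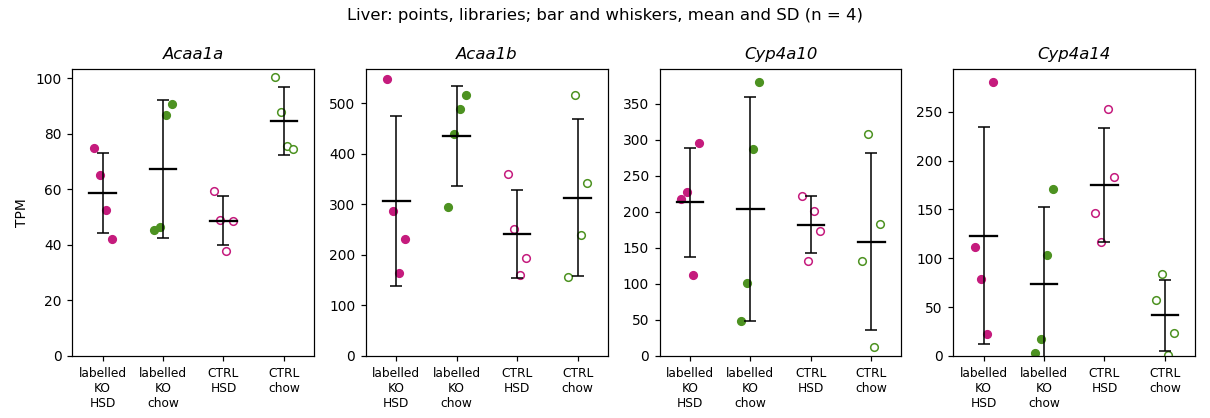
TPM of Acaa1a, Acaa1b, Cyp4a10 and Cyp4a14 in each of the 16 liver libraries, by group, with group means and SD. CTRL livers on HSD lie at 37.7 to 59.3 TPM for Acaa1a, below the CTRL livers on chow at 74.4 to 100.3 TPM, whereas Cyp4a14 runs between 1.17 and 280.0 TPM with wide scatter inside groups.

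Acaa1b did not separate the diets in CTRL livers as Acaa1a did. It was at 548, 287, 164 and 230.5 TPM in labelled KO livers on HSD, 295, 439, 489 and 517 TPM in labelled KO livers on chow, 361, 250.3, 160.3 and 194 TPM in CTRL livers on HSD, and 155, 516, 239 and 341.5 TPM in CTRL livers on chow. The groups overlapped for both genotypes and both diets. Mean Acaa1b was lower on HSD than on chow in labelled KO livers (307.5 against 435 TPM) and in CTRL livers (241.5 against 313 TPM). Acaa1b formed 82.0% ± 6.91 of the summed TPM of the pair in liver.

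Cyp4a14 had the widest spread among livers of all members. Cyp4a10 was at 218, 227, 112 and 295 TPM in labelled KO livers on HSD, 48.9, 102, 287 and 380.2 TPM in labelled KO livers on chow, 222, 132, 201.5 and 173 TPM in CTRL livers on HSD, and 131, 308, 12.3 and 183 TPM in CTRL livers on chow. Cyp4a14 was at 111.5, 78.6, 22.65 and 280.0 TPM in labelled KO livers on HSD and 3.32, 17.15, 103.5 and 171 TPM in labelled KO livers on chow. It was at 146, 117, 252 and 184 TPM in CTRL livers on HSD, all above the 57.65, 83.5, 1.17 and 23.7 TPM of CTRL livers on chow, with a difference of 2.01 ± 1.13 that did not pass the test (edgeR, adjusted p = 0.327). Of the 31-base stretches of Cyp4a10, 36.5% are shared with Cyp4a32. The coefficient of variation over the 16 livers was 83.0% for Cyp4a14, 67.4% for Ppard, 54.5% for Acot1, 52.9% for Acot2, 52.1% for Cyp4a10 and 49% for Crat. The median over members with a mean of at least 1 TPM was 18.4% in liver, against 9.68% in heart, 11.7% in muscle and 11.6% in WAT.

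Cyp4a14 was therefore set against each of the other 32 members over the 16 livers, on log2(TPM + 1) values; it was chosen after its spread had been seen. Permutation p-values (100000 resamples, two-sided) were adjusted over all 11258 other genes tested in liver. For 5 of the 32 members Pearson's r was positive and passed an adjusted p of 0.05, where 0.142% of all genes passed, and Spearman's rho passed for 0 members and 0% of genes. The median r was 0.612 over the members and 0.205 over all genes. Etfdh, which hands electrons from the flavoprotein to ubiquinone, had r = 0.893 (permutation p = 1e-05, the smallest these resamples can give, adjusted p = 0.0338) and rho = 0.909 (permutation p = 2e-05, adjusted p = 0.0844). Without the 2 livers farthest from the median of Cyp4a14 its r was 0.912, and after removal of group means 0.886. Acot2 had r = 0.889 (permutation p = 3e-05, adjusted p = 0.0338) and rho = 0.759 (permutation p = 0.00101, adjusted p = 0.157), with r = 0.765 without the 2 livers and 0.897 within groups. Crat, Cyp4a10 and Acot1 were the other members that passed, with r of 0.663, 0.633 and 0.671 without the 2 livers. For members that did not pass, r could rest on those 2 livers, as for Hadha, at 0.602 with them and 0.0797 without. Acaa1b had r = 0.0468 (permutation p = 0.863, adjusted p = 0.95) and rho = -0.0382 (permutation p = 0.89, adjusted p = 0.972). All values of a library share its TPM scaling, whose part in these relations was not tested.

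**Figure D3:**
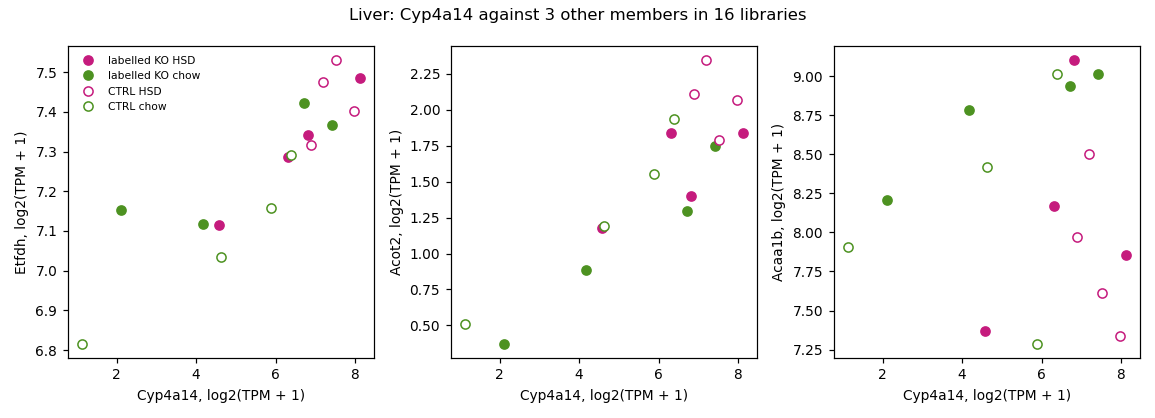
Etfdh, Acot2 and Acaa1b against Cyp4a14 in the 16 liver libraries, each axis in log2(TPM + 1), with a symbol per group. Etfdh (r = 0.893) and Acot2 (r = 0.889) go up with Cyp4a14 across livers of every group, and Acaa1b (r = 0.0468) does not.

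Some members had HSD libraries that did not overlap with chow in CTRL livers without passing the test. In all, 4 of 33 members (Bdh1, Cyp4a14, Etfa and Etfdh) had every HSD library above every chow library, where 10.2% of all genes did, and Acaa1a alone had them below, where 3.22% did. Both counts were near the share of all genes, so they do not set the members apart. Etfa averaged 302 ± 8.93 TPM in CTRL livers on HSD and 226.5 ± 29.4 TPM in CTRL livers on chow (0.31, adjusted p = 0.0849 by edgeR), and Bdh1 131.5 ± 11.2 TPM and 92.7 ± 14.6 TPM (0.40, adjusted p = 0.0945). Etfdh averaged 172 ± 10.99 TPM on HSD and 135 ± 18.6 TPM on chow in CTRL livers, also without overlap. DESeq2 called Acaa1a, Etfa and Bdh1 in this comparison, and limma called Etfa. Averaged over genotypes, limma called Crat (1.14), Ehhadh (0.54) and Etfa (0.27) higher on HSD and did not call Acaa1a. Over the members, 17 of 33 were higher on HSD in CTRL livers, with a median of 0.01 against -0.02 over all genes. Of 29 other pathway genes tested, 4 rose and 2 fell on HSD in CTRL livers, among them Abcd2, a peroxisomal fatty acyl transporter (2.26 ± 0.34), the coactivator Ppargc1a (1.15 ± 0.20), the pyruvate dehydrogenase kinase Pdk4 (1.53 ± 0.34) and the peroxisomal CoA hydrolase Nudt7 (-0.96 ± 0.19).

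For genotype in liver, edgeR called 0 of 33 members on chow, where it called 0% of all genes. Acat1 was at 131 ± 17.8 TPM in labelled KO livers on chow and 93.5 ± 16.4 TPM in CTRL livers on chow (0.54 ± 0.13, adjusted p = 0.196), Etfa gave 0.34 ± 0.10 (adjusted p = 0.197) and Bdh1 0.37 ± 0.13 (adjusted p = 0.286). At an unadjusted p under 0.05 there were 6 members (and 12.2% of all genes), limma called 0, and DESeq2 called Acat1 (adjusted p = 0.00729) and Etfa (adjusted p = 0.0210). Without CTRL chow livers 1 and 3 edgeR called 0 members, and 14 of 33 were higher in labelled KO livers, against 21 with them. On HSD edgeR called 0 members where 0.0711% of genes were called, and 1 member, Eci1 (0.36 ± 0.14, adjusted p = 0.712), had an unadjusted p under 0.05, as had 5.86% of all genes. Acot2 (-0.65 ± 0.45) and Ppard (-0.69 ± 0.49) both had an adjusted p of 0.999. Averaged over diets, edgeR called 0 members and 0% of genes, with 5 members and 9.58% of genes at an unadjusted p under 0.05, led by Eci1 (0.36 ± 0.10, adjusted p = 0.311), Acat1 (0.31 ± 0.09) and Echs1 (0.19 ± 0.07). In labelled KO livers, HSD against chow gave 0 calls among members and 0.00888% among all genes, with Acat1 (-0.34 ± 0.13, adjusted p = 0.370) the 1 member at an unadjusted p under 0.05, where 10% of genes were. Ehhadh, at 135 ± 11.8 TPM in labelled KO livers on HSD and 101 ± 8.51 TPM in labelled KO livers on chow, was the 1 member that did not overlap there, where 6.68% of all genes were above chow without overlap. The interaction gave 0 calls among members and 0% among all genes, with 3 members and 8.7% of genes at an unadjusted p under 0.05: Bdh1 (-0.55 ± 0.19, adjusted p = 0.415), Acat1 (-0.45 ± 0.18) and Etfa (-0.34 ± 0.14). DESeq2 and limma called 0 members in these last 4 comparisons.

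In WAT, 10 of 29 members passed the test for diet as the mean of genotypes and 5 in labelled KO mice alone. Between the genotypes on chow Ehhadh and Ppara passed, a count near the share of all genes. Ehhadh was at 40.1, 41.8, 49.9 and 33.65 TPM in labelled KO WAT on HSD, 28.65, 24.2, 27.8 and 28.7 TPM in labelled KO WAT on chow, 24.9, 30.5, 36.6 and 27.1 TPM in CTRL WAT on HSD, and 51.2, 43.6, 35.4 and 45.5 TPM in CTRL WAT on chow. In labelled KO mice all 4 HSD libraries were above the chow libraries, and on chow all 4 labelled KO libraries were below the CTRL libraries. Ppara was at 2.70, 2.92, 2.34 and 3.52 TPM in labelled KO WAT on HSD, 1.62, 1.53, 1.59 and 1.90 TPM in labelled KO WAT on chow, 2.75, 2.39, 2.32 and 2.83 TPM in CTRL WAT on HSD, and 2.37, 2.43, 3.37 and 3.18 TPM in CTRL WAT on chow. The labelled KO libraries on chow were thus below all 12 others.

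Acot2 was at 14.8, 13.6, 12.5 and 12.3 TPM in labelled KO WAT on HSD, 8.67, 5.44, 9.63 and 7.99 TPM in labelled KO WAT on chow, 7.91, 9.48, 11.8 and 11.3 TPM in CTRL WAT on HSD, and 8.96, 9.11, 12.0 and 10.4 TPM in CTRL WAT on chow. The labelled KO libraries on HSD were above all 12 others. Echs1 was at 331, 313, 325 and 298.5 TPM in labelled KO WAT on HSD, 291, 259, 267 and 243 TPM in labelled KO WAT on chow, 309.5, 282.5, 296 and 297.5 TPM in CTRL WAT on HSD, and 262, 210.2, 295 and 265 TPM in CTRL WAT on chow. Its HSD libraries exceeded the chow libraries in labelled KO mice, and in CTRL mice they overlapped with 1 chow library.

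**Figure D4:**
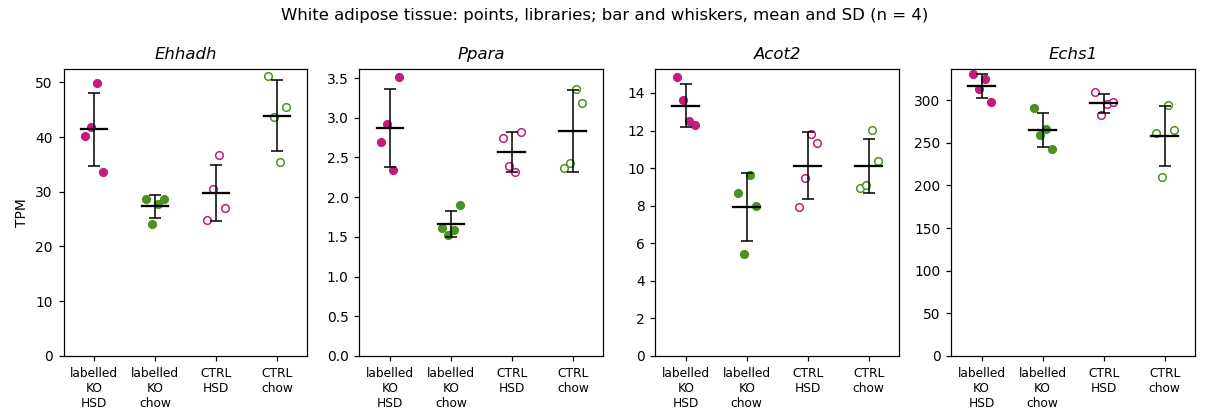
TPM of Ehhadh, Ppara, Acot2 and Echs1 in each of the 16 WAT libraries, by group, with group means and SD. For Ppara the labelled KO libraries on chow, at 1.53 to 1.90 TPM, lie below all others, and for Acot2 the labelled KO libraries on HSD, at 12.3 to 14.8 TPM, lie above all others.

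In labelled KO WAT, 5 of 29 members rose on HSD and 0 fell, where 2.7% of all genes were called higher. They were Acot2 (0.89 ± 0.17, adjusted p = 0.00702 by edgeR), Ehhadh (0.74 ± 0.15, adjusted p = 0.00890), Ppara (1.03 ± 0.21, adjusted p = 0.00943), Echs1 (0.40 ± 0.11, adjusted p = 0.0428) and Cpt2 (0.43 ± 0.12, adjusted p = 0.0431). The median over members was 0.19, against 0.00 over all genes, and 25 of 29 were higher, where 50.5% of all genes were. On the log2(TPM + 1) scale, where the median of all genes was -0.11, the members' median was 0.00 and 15 of 29 were higher, and 10 members changed sign, none of the 5 called. With 1 library left out at a time, Acot2, Ehhadh and Ppara passed in 16 of 16 fits, Echs1 in 6 and Cpt2 in 5. Cpt1a, at 30.04 ± 2.80 TPM in labelled KO WAT on HSD and 41.9 ± 2.97 TPM in labelled KO WAT on chow, and Oxct1, at 118 ± 13.3 TPM and 163 ± 31.4 TPM, had HSD libraries below all chow libraries, as had 13.5% of all genes, and limma called Cpt1a (-0.47, adjusted p = 0.0293). Of 27 other pathway genes, 6 rose and 1 fell, among them the peroxisomal thioesterase Acot4 (1.66 ± 0.19), the acyl-CoA synthetase Acsl1 (1.03 ± 0.15), Lpin1, a phosphatidate phosphatase and coactivator (0.97 ± 0.21), and Pparg, the adipogenic PPAR (0.54 ± 0.12).

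The clock score moved with this comparison, at 2.46 to 3.28 in labelled KO WAT on HSD, -1.60 to 0.0853 in labelled KO WAT on chow, -1.51 to 0.227 in CTRL WAT on HSD and -0.496 to 1.43 in CTRL WAT on chow. With the score as a covariate 0 members were called by edgeR: Acot2 was at 0.33 (adjusted p = 0.993), Ehhadh at 0.59 (adjusted p = 0.962), Ppara at 0.51 (adjusted p = 0.993), Echs1 at 0.43 (adjusted p = 0.963) and Cpt2 at 0.48 (adjusted p = 0.961). Score and diet cannot be told apart in labelled KO WAT, since the ranges did not overlap. Endothelial markers summed to 213 to 227 TPM in labelled KO WAT on HSD and 299 to 376 TPM in labelled KO WAT on chow, macrophage markers to 509.5 to 837 TPM and 822 to 1055 TPM, and white adipocyte markers to 18000 to 31130 TPM and 14610 to 20520 TPM. Hepatocyte markers summed to 449.7 TPM in labelled KO chow WAT replicate 3 and to at most 54.4 TPM in the other WAT libraries. Their part in the result was not tested.

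In CTRL WAT, edgeR called 0 of 29 members between HSD and chow, where 4.77% of all genes were called. Hadh (0.32 ± 0.09, adjusted p = 0.0531), Etfb (0.42 ± 0.12, adjusted p = 0.0618) and Echs1 (0.37 ± 0.11, adjusted p = 0.0633) came closest, and 7 of 29 members (and 23.1% of all genes) had an unadjusted p under 0.05, a share near that of all genes. DESeq2 called these 3 higher, and limma called Acaa2 (-0.27, adjusted p = 0.0468) and Ehhadh (-0.55, adjusted p = 0.0253) lower. The median over members was 0.10, against -0.04 over all genes, and on the log2(TPM + 1) scale it was -0.06 against -0.17. Of 27 other pathway genes, Pex11a, a peroxisome division factor, rose (0.97) and Abcd2 fell (-0.49).

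For the mean of genotypes in WAT, 9 of 29 members rose and 1 fell on HSD, where 4.51% of all genes were called higher and 6.5% lower. The strongest by edgeR were Echs1 (0.38 ± 0.08, adjusted p = 0.00591), Hadh (0.29 ± 0.07, adjusted p = 0.0102), Acot2 (0.53 ± 0.12, adjusted p = 0.0108) and Cpt2 (0.33 ± 0.09, adjusted p = 0.0203), and these passed in 16 of 16 fits with a library left out. Etfb (0.32 ± 0.09, adjusted p = 0.0261) passed in 11 such fits, Ppara (0.52 ± 0.15, adjusted p = 0.0331) in 10, Crat (0.32 ± 0.09, adjusted p = 0.0356) in 7, Hadha (0.27 ± 0.08, adjusted p = 0.0375) in 6 and Eci1 (0.35 ± 0.10, adjusted p = 0.0369) in 5. In CTRL WAT, Acot2 averaged 10.13 TPM on HSD and 10.12 TPM on chow. Ppara averaged 2.57 TPM on HSD and 2.84 TPM on chow there, so TPM of both rose in labelled KO mice alone. Mean TPM of Echs1, Hadh, Cpt2, Etfb, Crat, Hadha and Eci1 was higher on HSD in both genotypes. Cpt1a, the liver isoform of the rate-limiting entry enzyme, fell by -0.29 ± 0.08 (adjusted p = 0.0242, 9 fits). Its 8 HSD libraries ran from 26.7 to 35.1 TPM with a median of 30.6, against 33.02 to 49.4 TPM with a median of 41.9 in the 8 chow libraries.

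The scale mattered here too. On log2(TPM + 1) the median of all genes for HSD against chow in WAT was -0.14, and limma called 2 members higher (Acot2 at 0.35 and Echs1 at 0.23) and 4 lower (Cpt1a at -0.43, Oxct1 at -0.45, Acaa2 at -0.20 and Hsd17b4 at -0.24). Acot2, Echs1 and Cpt1a were thus called in the same direction by both. With the clock score as a covariate 0 members were called, and without CTRL chow WAT replicates 2 and 4 there were 2. Of 27 other pathway genes 9 rose and 1 fell by edgeR, among them Acot4 (0.93), Acsl1 (0.68), Pex11a (0.76) and Angptl4, a lipoprotein lipase inhibitor (-0.55).

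Between the genotypes on chow, 2 of 29 WAT members fell in labelled KO mice, where 5.5% of all genes were called lower, so the count was near the share of all genes. Ehhadh averaged 27.3 ± 2.14 TPM in labelled KO WAT and 43.9 ± 6.54 TPM in CTRL WAT, a difference of -0.66 ± 0.15 (edgeR, adjusted p = 0.0159). Ppara averaged 1.66 ± 0.165 TPM in labelled KO WAT and 2.84 ± 0.513 TPM in CTRL WAT, a difference of -0.76 ± 0.21 (adjusted p = 0.0437). Ehhadh lost its call without labelled KO chow WAT replicate 2 (adjusted p = 0.0753) or 4 (0.0550) and without CTRL chow WAT replicates 2 and 4 together (0.157), and Ppara passed in 3 of 16 fits with a library left out, with an adjusted p of 0.0295 to 0.142. With the clock score as a covariate neither passed, Ehhadh at -0.61 (adjusted p = 0.115) and Ppara at -0.58 (adjusted p = 0.249). The other members leaned the other way: 20 of 29 were higher in labelled KO mice, where 52.8% of all genes were, with a median of 0.07 against 0.02 over all genes, and 0 were called higher. Among 27 other pathway genes Abcd2 fell (-0.48).

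On HSD, edgeR called 0 of 29 members between the genotypes, where 0.106% of all genes were called. Ehhadh was at 0.47 ± 0.15 (adjusted p = 0.242), Eci2 at 0.24 ± 0.10 (adjusted p = 0.370) and Cpt2 at 0.30 ± 0.12 (adjusted p = 0.388), and 5 members (and 10.6% of all genes) had an unadjusted p under 0.05. Values were higher in labelled KO WAT for 25 of 29 members and 50.7% of all genes, with a median of 0.14 against 0.00, and Cpt2, Acadl, Hadha, Eci1, Acat1 and Acot2 had all labelled KO libraries above all CTRL libraries, 6 of 29 where 3.27% of all genes did. Averaged over diets, edgeR called 0 members, where 3.09% of genes were called, with 6 (and 17.9% of genes) at an unadjusted p under 0.05, led by Hadh (0.18 ± 0.07, adjusted p = 0.163), Acads (0.25 ± 0.11) and Cpt2 (0.19 ± 0.08). DESeq2 and limma called 0 members in both comparisons.

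The diet response of Ehhadh differed between the genotypes in WAT. The interaction, labelled KO minus CTRL in the HSD difference, was 1.13 ± 0.21 (edgeR, adjusted p = 0.0220), and Ehhadh was the 1 of 29 members called, where 0.385% of all genes were called higher. In labelled KO mice HSD libraries were above chow, and in CTRL mice 3 of 4 HSD libraries were below all chow libraries. The call held in 9 of 16 fits with a library left out and was lost without labelled KO chow replicate 2 or 4, labelled KO HSD replicate 3, CTRL HSD replicate 1, 2 or 4, or CTRL chow replicate 1, with adjusted p up to 0.0741. It was 0.0731 without CTRL chow replicates 2 and 4, and with the clock score as a covariate the interaction was 0.94 (adjusted p = 0.983). Of 27 other pathway genes Acot4 (1.45) and Abcd2 (0.75) had a positive interaction past the test.

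**Figure D5:**
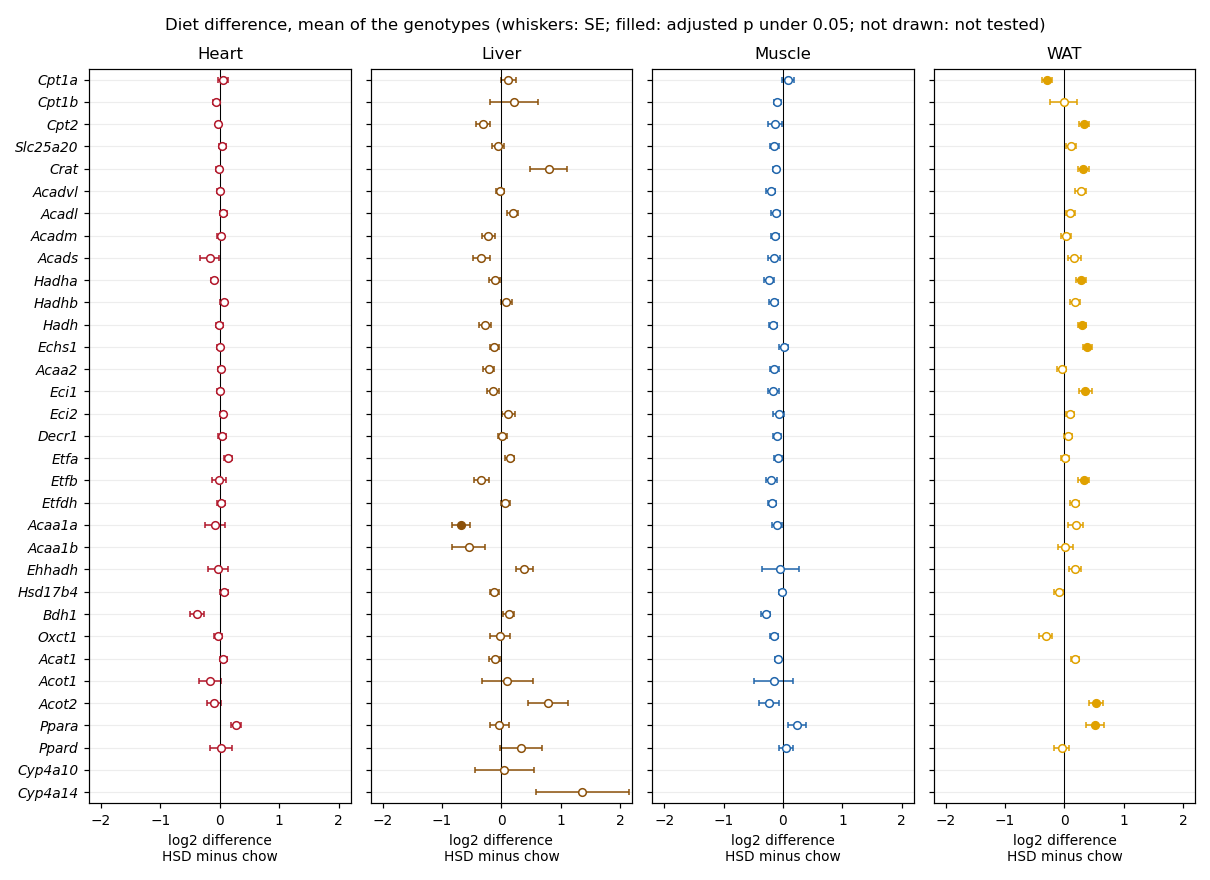
Log2 difference between HSD and chow, as the mean of both genotypes, for each member tested in heart, liver, muscle and WAT, with standard errors from edgeR. Filled points passed an adjusted p of 0.05: in WAT 10 members, in liver Acaa1a, and in heart and muscle 0.

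In heart, 0 of 30 members passed edgeR's test in any of the 7 comparisons, and DESeq2 and limma called 0 as well. Labelled KO against CTRL hearts gave calls for 0% of all genes on chow, 0.0412% on HSD and 0% for the mean of diets, with 2, 1 and 2 members at an unadjusted p under 0.05, where 3.68%, 5.44% and 4.16% of all genes were. HSD against chow gave calls for 0.14% of genes in labelled KO hearts, 0.0247% in CTRL hearts and 0.173% for the mean of genotypes, with 1, 1 and 3 members at an unadjusted p under 0.05, where 7.43%, 6.16% and 9.02% of genes were. The interaction gave calls for 0.00824% of genes, with 0 members and 4.78% of genes at that level. Bdh1 had the smallest p. It was at 26.1, 31.05, 31.5 and 24.99 TPM in labelled KO hearts on HSD, 37.1, 44.9, 39.3 and 49.3 TPM in labelled KO hearts on chow, 26.7, 19.5, 30.85 and 22.7 TPM in CTRL hearts on HSD, and 30.4, 25.2, 43.04 and 38.7 TPM in CTRL hearts on chow. In labelled KO mice the HSD hearts were all below the chow hearts for Bdh1, as for 3 of 30 members and 6.36% of all genes, and in CTRL mice they overlapped. In CTRL mice the TPM of 5 other members (Acadvl, Crat, Decr1, Eci1 and Hadha) was lower in every HSD heart than in every chow heart, where 6.91% of all genes were. Of these, Decr1 had the opposite sign by edgeR.

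HSD minus chow for Bdh1 was -0.49 ± 0.16 in labelled KO hearts (edgeR, adjusted p = 0.340), -0.28 ± 0.16 in CTRL hearts (adjusted p = 0.898) and -0.39 ± 0.11 for the mean of genotypes (adjusted p = 0.214). Labelled KO minus CTRL was 0.35 ± 0.16 for Bdh1 on chow (adjusted p = 1) and 0.25 ± 0.11 for the mean of diets (adjusted p = 0.999). Ppara was at 0.38 ± 0.12 for HSD in CTRL hearts (adjusted p = 0.603), 0.27 ± 0.09 for the mean of genotypes (adjusted p = 0.295) and -0.27 ± 0.13 for labelled KO against CTRL hearts on HSD (adjusted p = 0.899). Clock scores of the hearts were 1.32 to 2.04 in labelled KO mice on HSD and -1.39 to 0.626 in the other 3 groups. The direction of the diet differences in heart depended on the scale. Between edgeR and log2(TPM + 1), 15 of 30 members changed sign in CTRL hearts, 16 in labelled KO hearts and 15 for the mean of genotypes.

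In muscle, 0 of 30 members passed edgeR's test in any of the 7 comparisons, and limma called 0. Labelled KO against CTRL gave calls for 0% of all genes on chow, on HSD and for the mean of diets, with 3, 1 and 3 members at an unadjusted p under 0.05, where 11.3%, 5.16% and 7.83% of all genes were. HSD against chow gave calls for 0.00827% of genes in labelled KO muscles, 0.091% in CTRL muscles and 1.12% for the mean of genotypes, with 1, 9 and 8 members at an unadjusted p under 0.05, where 8.39%, 14.9% and 14.8% of genes were. The interaction gave calls for 0% of genes, with 1 member and 7.88% of genes at that level. Without labelled KO chow muscle 2 or CTRL chow muscle 1, edgeR called 0 members in each of the 7 comparisons as well. Bdh1 was at 179.9, 125.9, 131 and 122 TPM in labelled KO muscles on HSD, 153.5, 161, 196 and 209 TPM in labelled KO muscles on chow, 172, 167, 197 and 143 TPM in CTRL muscles on HSD, and 158, 189.5, 182 and 205 TPM in CTRL muscles on chow. The groups overlapped, with 3 of the 4 labelled KO muscles on HSD below all 12 others. For the mean of genotypes HSD minus chow was -0.29 ± 0.08 (edgeR, adjusted p = 0.0773), and DESeq2 called Bdh1 there, at -0.30 (adjusted p = 0.0161).

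Most members had lower values on HSD in muscle without passing the test. In CTRL muscles 26 of 30 were lower, with a median of -0.20 against 0.00 over all genes, of which 49.8% were lower. Hadha averaged 54.5 ± 7.72 TPM in CTRL muscles on HSD and 66.4 ± 11.8 TPM in CTRL muscles on chow (-0.37 ± 0.12, adjusted p = 0.160 by edgeR). Acadvl averaged 360.1 ± 39.3 TPM on HSD and 417 ± 39.9 TPM on chow (-0.29 ± 0.10, adjusted p = 0.189), and Etfb gave -0.34 ± 0.13 (adjusted p = 0.230). In labelled KO muscles 23 of 30 were lower on HSD, with a median of -0.06. On chow 27 of 30 members were lower in labelled KO than in CTRL muscles, with a median of -0.13 where 49.1% of all genes were lower, and Oxct1 gave -0.26 ± 0.09 (adjusted p = 0.347). These members come from the same few libraries, so such counts are not independent observations. Clock scores were 0.264 to 1.28 in labelled KO muscles on HSD, -1.71 to -1.43 in labelled KO muscles on chow, -1.82 to -0.342 in CTRL muscles on HSD and -2.29 to -0.284 in CTRL muscles on chow, and with the score as a covariate 26 of 30 members were lower on HSD in CTRL muscles, 22 in labelled KO muscles, and 24 in labelled KO than in CTRL muscles on chow. With it Bdh1 turned to 0.12 and Oxct1 to 0.06 for HSD in labelled KO muscles, and Bdh1 to 0.10 for labelled KO against CTRL muscles on HSD. Score and group cannot be told apart there, since scores of labelled KO muscles on HSD did not overlap with the others. On the log2(TPM + 1) scale 23 of 30 were lower for HSD in CTRL muscles and 22 for HSD in labelled KO muscles. For labelled KO against CTRL muscles on chow, 20 were lower.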

How the data were processed

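Total RNA from heart, liver, muscle and WAT was sequenced, and the authors deposited a table of estimated counts and a table of TPM per gene for all 64 libraries, made with kallisto on GRCm38, per the submitters' processing notes. For the kallisto version and annotation, the sources used here state nothing. Per library the deposited TPM values fall short of the full TPM total, at 911000 to 927000 in liver and 816000 to 844600 in WAT, so a share of the transcript total is not used here. Groups came from the genotype, diet and tissue labels, and no 2 of 96 within-group pairs of libraries were identical (lowest chi-square per degree of freedom 4.42).

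Estimated counts were rounded, filtered with filterByExpr (minimum count 10), scaled by TMM and tested with edgeR 4.0.16 (glmQLFit, robust, and glmQLFTest, R 4.3.3), with a mean for each of the 4 groups of a tissue, and, for tissues, in the 16 CTRL chow libraries. P-values were adjusted by Benjamini and Hochberg over all genes tested at a threshold of 0.05, and the standard error is the log2 difference divided by the square root of F. DESeq2 1.42.0, limma 3.58.1 on log2(TPM + 1), DESeq2 size factors, no filter, a clock covariate, removal of a length trend, fits of 8 libraries and fits without libraries were alternatives, and summing of near-identical copies, and tissue fits without the doubted CTRL chow libraries, were added after seeing the data. The edgeR fit was tried on simulated counts with known changes. This covered HSD against chow in labelled KO liver and WAT, and heart against liver. DESeq2, limma and the other edgeR comparisons were not tried this way. Shared 31-base stretches were counted in GENCODE M21 transcripts, whose version need not be the authors'.

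The 33 members, their roles, the lists of other pathway genes, markers and clock genes, and the doubted libraries were chosen with earlier results of these data known. Members past the threshold are named, up to 8 a comparison by p. Where none passed, up to 3 with the smallest p are given, and for tissues the 4 largest differences each way. Other pathway genes are named, up to 4, where past the threshold, and values per library are given for up to 4 members a tissue. P-values of the group tests rest on the spread between mice within groups. That spread is pooled over all groups of a fit and moderated across genes, so it is not that of the 4 mice of a single group. The permutation p-values for Cyp4a14 were taken over all livers together and do not measure spread within groups. Sequences on mouse chromosome 18 were not used here.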

Additional observations from a re-analysis of the deposited data

Results flagged for a closer look

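Bdh1 in muscle of labelled KO mice on HSD held a library far from the other 3: replicate 1 was at 179.9 TPM, and its gap to the next library was 0.845 of the range of the group, above Dixon's critical value for 4 samples. It was the 1 such value among 56 groups examined, and chance alone gives about 1 in 20.

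Ehhadh in WAT was the member whose diet difference depended on genotype, with an interaction of 1.129 on the log2 scale (edgeR, adjusted p = 0.0220). The HSD difference was 0.74 ± 0.15 in labelled KO mice, and in CTRL mice the group mean was lower on HSD than on chow. With the clock score as a covariate the interaction was 0.94 (adjusted p = 0.983).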

How the results depend on the processing

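Counts below are members called by edgeR unless another test is named, and for each comparison that moved the cause was not tested. Shares of all genes are given for edgeR's main fits alone, so counts under the alternatives do not set the members apart from other genes. Clock scores did not overlap between the diets in CTRL livers or in labelled KO WAT, heart and muscle. They did not overlap between the genotypes on HSD in any tissue either. Score and group cannot be told apart there, so a call or sign lost with the clock covariate decides nothing. In CTRL livers, HSD against chow gave 1 call, and 3 with DESeq2, 2 with the length trend removed, and 0 with the clock covariate, with near-identical copies summed or without CTRL chow livers 1 and 3. Averaged over genotypes in liver, the 1 call became 3 by limma, and 0 with copies summed or without those livers. Labelled KO against CTRL livers on chow gave 0, and 2 by DESeq2. In WAT on chow, labelled KO against CTRL gave 2, and 1 without the low-count filter, with the length trend removed or with only the 8 libraries compared, and 0 with the clock covariate or without CTRL chow WAT 2 and 4. HSD against chow in CTRL WAT gave 0, and 1 with DESeq2 size factors, 3 by DESeq2 and 2 by limma. In labelled KO WAT it gave 5, and 3 without the filter, 9 by DESeq2 and 0 with the clock covariate. Averaged over genotypes it gave 10, and 6 by limma, 2 without CTRL chow WAT 2 and 4, and 0 with the clock covariate. The WAT interaction gave 1, and 0 with the clock covariate or without those libraries. The mean of genotypes in muscle gave 0, and 1 by DESeq2.

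With each library left out in turn, calls ranged from 0 to 2 for HSD in CTRL livers, 1 to 2 for the liver mean of genotypes, 0 to 2 for genotype in WAT on chow, 0 to 3 for HSD in CTRL WAT, 3 to 7 in labelled KO WAT, 4 to 11 for the WAT mean of genotypes, 0 to 1 for the WAT interaction and 0 to 1 for the muscle mean of genotypes. Of 2594 alternative log2 differences of the members picked by the naming rule 8 changed sign, none of a member called in that comparison. That count leaves out the other members of the tissue comparisons, of which 14 changed sign on the log2(TPM + 1) scale for liver against WAT (13 of them called by edgeR, 8 called in opposite directions by edgeR and limma) and 3 for heart against muscle. Members not picked are left out within tissues too. For HSD against chow 15 of 30 members changed sign on that scale in CTRL hearts and 16 in labelled KO hearts. In labelled KO WAT 10 of 29 did, and 8 of 33 for the mean of genotypes in liver. No member called by edgeR within a tissue changed sign there. Of the 8 sign changes among picked members, those with the clock covariate were Ppard in livers on HSD between genotypes (1.28), Bdh1 in muscle between genotypes on HSD (0.10) and for HSD in labelled KO mice (0.12), and Oxct1 in labelled KO muscle on HSD (0.06). By limma, Etfa in heart was at -0.0196 for HSD in labelled KO mice and -0.00238 for the mean of genotypes, against 0.14 by edgeR in both. Ppard in livers ran from -0.999 to 0.12 with a library left out, and Cyp4a10 for heart against muscle from -1.33 to 3.55. Of 740 alternative counts 670 stayed within 1.5 times the reported count.

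The labels do not say that a title number marks a mouse. Libraries of different tissues with the same number correlated above 0.1 in 15 of 24 pairs in labelled KO mice on HSD, 15 in labelled KO mice on chow, 16 in CTRL mice on HSD and 6 in CTRL mice on chow, against 13, 6, 8 and 8 of 72 pairs with different numbers. Since not every pair did, the number was not taken to pair tissues. With 8 animals of each genotype label, libraries of different tissues come from the same mice, and the tissue tests treat them as independent. With the title number as a replicate block, calls among members were 30 for heart against liver, 17 for heart against muscle and 32 for liver against WAT, against 30, 15 and 32 without it. Cyp4a10, Cyp4a14 and Acaa1b in heart and muscle, and Bdh1, Acot1 and the Cyp4a genes in WAT, were too shallow for diet or genotype tests.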
